A study of Mus musculus with 2 samples.

Results

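The genes for 10 interleukin receptor chains were examined in mouse bone marrow plasmacytoid dendritic cells (pDCs), which are known as the main producers of type I interferon. The chains were listed by name, with the difference between the genotypes already known for these data, and each was read from the probe set whose single annotated gene symbol was the chain's. This gave 9 of the 10 genes, out of 19938 named genes in all. Il2rg, the common gamma chain, was not analysed here. Each of the 9 had 1 probe set, so no choice between probe sets was needed.

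The arrays compared Runx2-/- pDCs, from mice whose blood system had been rebuilt with Runx2-/- fetal liver cells, with wild-type pDCs from fetal liver chimeras of the wild-type genotype. Runx2 is a transcription factor known for its role in bone formation, and mice that lack it die at birth, which is why blood cells without it are studied in chimeras. Marrow was taken 2 months after reconstitution, cells were sorted as CD11b-, BST2+ and B220+, and their total RNA (250 ng for each sample) was labelled and hybridised to an Affymetrix Mouse Gene 1.0 ST array. There was 1 array per genotype, so no value below has an error, a replicate check or a p-value. The labels do not give the number of mice per sample or the share of host cells that remained. The median intensity over 35556 probe sets was 181.7 on the Runx2-/- array and 182.9 on the wild-type array. Runx2 itself was not analysed here, so the genotype labels were not checked on the targeted gene. All 11 measured pDC marker genes were past the brightness filter described below, among them Bst2 and Ptprc, the genes of the sort markers BST2 and B220. Of all 19938 named genes 10337 were past it too, so passing it does not measure the purity of the sort. The log2 levels of the 11 genes on the Runx2-/- and wild-type arrays ran from Pacsin1 at 10.20 and 10.76 to Siglech at 13.55 and 13.48. Of the 11, 0 were 2-fold apart, beside 1.08% of all named genes.

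Interleukin receptors are built from separate chains, usually 1 that recognises a particular ligand and 1 that is shared between several receptors and passes the signal on. IL-2, IL-7, IL-15, IL-4, IL-9 and IL-21 share the common gamma chain, IL-12 and IL-23 share Il12rb1, IL-25 and IL-17A share Il17ra, and IL-3 shares its beta chain with GM-CSF and IL-5. Most of these receptors signal through JAK kinases and STAT factors, while the IL-17 family uses the adaptor Act1. IL-12 and IL-25 need both chains of their receptors, whereas IL-2 can also act, at higher concentrations, through the beta and gamma chains without the alpha chain. In human pDCs the IL-3 receptor alpha chain, CD123, is a standard surface marker and IL-3 is a survival factor.

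The start-site windows of the 4 chain genes that were at least 2-fold apart between the arrays are shown first, because the deleted gene encodes a DNA-binding protein of the Runt family. Each window runs from 250 bases before to 50 bases after the annotated gene start, 5′ to 3′ on the gene's strand, and comes from RefSeq on build GRCm38.p6. Capitals mark the 6-base Runx motifs TGTGGT or TGCGGT on either strand and the STAT motif TTCNNNGAA. The windows are chr2:11642542-11642841 (plus strand) for Il2ra, chrX:36111858-36112157 (plus strand) for Il13ra1, chr6:67376139-67376438 (minus strand) for Il12rb2 and chr14:30008847-30009146 (minus strand) for Il17rb.
Il2ra: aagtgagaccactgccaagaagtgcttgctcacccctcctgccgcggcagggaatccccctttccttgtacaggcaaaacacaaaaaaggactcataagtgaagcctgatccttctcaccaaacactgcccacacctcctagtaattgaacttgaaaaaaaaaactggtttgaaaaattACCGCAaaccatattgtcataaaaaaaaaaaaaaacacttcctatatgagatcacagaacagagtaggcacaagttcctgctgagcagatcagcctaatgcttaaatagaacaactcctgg
Il13ra1: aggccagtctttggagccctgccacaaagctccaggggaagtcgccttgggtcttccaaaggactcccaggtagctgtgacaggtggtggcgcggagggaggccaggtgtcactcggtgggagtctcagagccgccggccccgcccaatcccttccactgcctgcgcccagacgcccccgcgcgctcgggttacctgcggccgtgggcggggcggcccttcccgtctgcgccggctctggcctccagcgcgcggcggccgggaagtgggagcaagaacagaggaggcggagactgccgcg
Il12rb2: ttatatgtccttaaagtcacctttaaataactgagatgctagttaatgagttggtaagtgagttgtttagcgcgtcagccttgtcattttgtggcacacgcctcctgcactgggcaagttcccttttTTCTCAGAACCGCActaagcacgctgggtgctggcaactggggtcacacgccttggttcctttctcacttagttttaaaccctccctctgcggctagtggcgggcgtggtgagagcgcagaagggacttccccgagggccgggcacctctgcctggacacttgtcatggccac
Il17rb: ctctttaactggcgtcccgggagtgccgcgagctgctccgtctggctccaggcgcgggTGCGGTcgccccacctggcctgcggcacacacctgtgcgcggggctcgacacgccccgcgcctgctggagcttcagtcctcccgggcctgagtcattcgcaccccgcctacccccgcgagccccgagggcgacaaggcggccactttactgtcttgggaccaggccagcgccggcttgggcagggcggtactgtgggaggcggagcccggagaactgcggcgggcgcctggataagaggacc

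In 3 of these 4 windows TGCGGT or its reverse complement occurred 1 time, at base -71 of Il2ra, -115 of Il12rb2 and -192 of Il17rb counted from the gene start, and in the Il13ra1 window neither Runx motif occurred. The motif thus occurred in Il2ra, which was higher in Runx2-/- pDCs, and in Il12rb2 and Il17rb, which were lower. TGCGGT occurred in 6.45% of 32851 mouse windows of this length, TGTGGT in 16.8%, and at least 1 of the 2 in 22.4%. The STAT motif, found in 8.30% of windows, occurred in the Il12rb2 window at -123, where it shares 1 base with the Runx motif. The G and C content of the windows was 42.7% for Il2ra, 71.0% for Il13ra1, 53.0% for Il12rb2 and 72.0% for Il17rb. Among the listed chains less than 2-fold apart, windows were read for Il7r and Il3ra. Il7r held TGTGGT at base 4 and the STAT motif at -142, and Il3ra held none of the 3 motifs. Windows were also read for 9 partner chain genes, all less than 2-fold apart. TGTGGT or its reverse complement occurred at -83 of Il9r, -33 of Il21r and -236 of Crlf2, and the other partner windows held neither Runx motif. The STAT motif occurred at -15 of Csf2rb2. A match describes these letters only; binding was not measured.

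Runx2-/- pDCs had more Il2ra and Il13ra1 mRNA and less Il12rb2 and Il17rb mRNA than wild-type pDCs, and the other 5 chains were less than 2-fold apart. Past 2-fold lay 4 of the 9 chains, 2 of them higher in Runx2-/- pDCs and 2 lower. Over all named genes 1.08% were at least 2-fold apart in either direction, 0.436% higher and 0.647% lower, and since the chains were listed with their differences known, nothing is read from the contrast between these shares. The same 4 chains were the ones past 1.5-fold, where 3.95% of all named genes lay. The median log2 difference (Runx2-/- minus wild type) was -0.19 over the 9 chains and -0.03 over all named genes. A gene is called past the brightness filter where its log2 intensity reached an array's median over named genes, 7.54 for the Runx2-/- or 7.61 for the wild-type array; 8 of the 9 chains did, and 10337 named genes, of which 1.96% were at least 2-fold apart. Intensities depend on each probe set's own probes, so they are compared between arrays and not between genes.

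**Figure D1:**
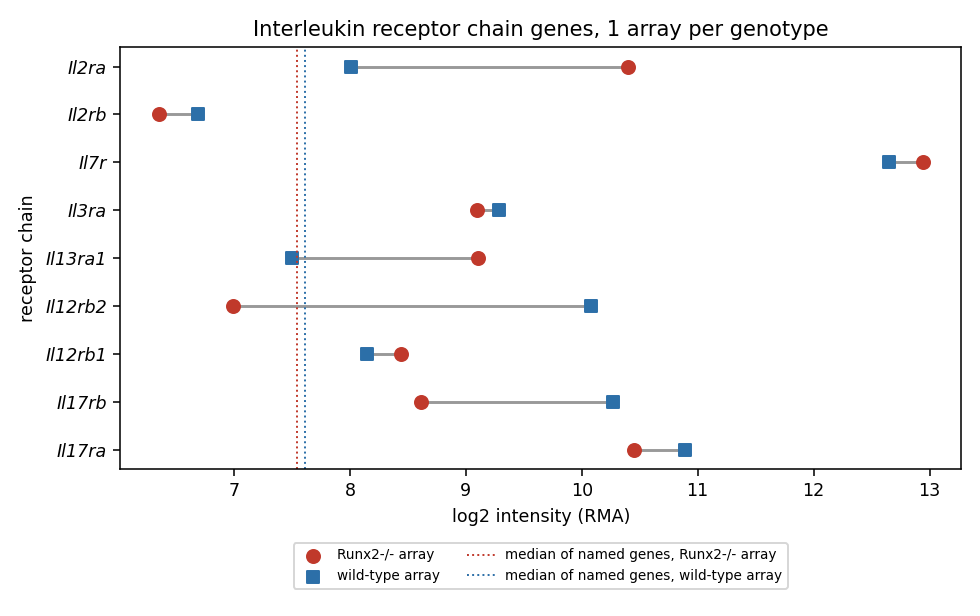
Log2 RMA intensity (x axis) of the 9 receptor chain genes (rows) on the Runx2-/- array (red circles) and the wild-type array (blue squares), 1 array each, with the array medians of named genes as dotted lines. Il2ra and Il13ra1 are further right on the Runx2-/- array, Il12rb2 and Il17rb on the wild-type array, and Il12rb2 crosses both medians.

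Among the measured chains of the IL-2 family, only the alpha chain gene Il2ra was past 2-fold between the arrays. Il2rg was not analysed here, and Il2rb was dim on both arrays. Il2ra encodes CD25, the chain that raises the receptor's affinity for IL-2 and has no signalling tail of its own. Its intensity was 1348 in Runx2-/- pDCs and 257 in wild-type pDCs. That is a 5.23-fold higher value in the Runx2-/- sample, a log2 difference of 2.39, and it ranked 4 from the top among the 10337 genes past the filter. The chains were listed with their differences known, so nothing is read from this rank or from those given below. Both levels of Il2ra lay above their array's median, with the wild-type level at 8.01 on the log2 scale against a median of 7.61. That median is not a detection level, and no detection call was available.

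Il2rb, the beta chain that signals for both IL-2 and IL-15, had an intensity of 81.6 in Runx2-/- pDCs and 103 in wild-type pDCs. Both values were below the array medians, and the log2 difference was -0.34. Il15ra, the private chain of the IL-15 receptor and the genomic neighbour of Il2ra, was at 228 in Runx2-/- pDCs and 209 in wild-type pDCs, a difference of 0.13. Within the IL-2 receptor the difference of Il2ra therefore exceeded that of Il2rb by 2.73 on the log2 scale, and the next gene along the chromosome did not share it. Rbm17, the RNA-binding protein gene on the other side of Il2ra, differed by -0.15.

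Il7r, the IL-7 receptor alpha chain known for lymphocyte development and survival, was bright and close to equal. It had an intensity of 7869.5 in Runx2-/- pDCs and 6434 in wild-type pDCs, a log2 difference of 0.29. With Crlf2, which had intensities of 376 in Runx2-/- and 494 in wild-type pDCs and differed by -0.40, Il7r forms the receptor for TSLP, a cytokine of epithelial cells. The 2 chains of the TSLP receptor thus had opposite signs, both below 2-fold.

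The remaining chains that pair with the common gamma chain were less than 2-fold apart. Il21r, the IL-21 receptor chain, was the partner gene furthest from equality, at 1047 in Runx2-/- pDCs and 558 in wild-type pDCs, which is 1.88-fold higher. Il4ra, the chain that binds IL-4, was at 1201 in Runx2-/- and 967 in wild-type pDCs, and Il9r, the IL-9 receptor chain, was at 177 and 199. Their log2 differences were 0.91 for Il21r, 0.31 for Il4ra and -0.17 for Il9r.

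Il13ra1, which joins Il4ra to form the type II receptor for IL-4 and IL-13, was higher in Runx2-/- pDCs. Its intensity was 549 in Runx2-/- pDCs and 181 in wild-type pDCs, a 3.03-fold higher value and a log2 difference of 1.60, ranking 19 from the top. The wild-type level, 7.50 on the log2 scale, lay just below that array's median, so Il13ra1 passed the filter through the Runx2-/- array only. The difference of Il13ra1 exceeded that of its partner Il4ra by 1.29. Il13ra2, a second IL-13 binding chain often described as a decoy, was dim on both arrays, at 33.7 in Runx2-/- and 34.4 in wild-type pDCs.

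Il13ra1 lies on the X chromosome, and sex-linked genes differed between the samples. The Y-linked genes Eif2s3y, Uty and Kdm5d had log2 levels of 4.98, 5.54 and 6.32 in Runx2-/- pDCs and 9.42, 8.48 and 8.58 in wild-type pDCs, while Xist, transcribed from the inactive X, was at 13.46 and 13.06. The 290 X-linked genes past the filter had a median difference of 0.05, and 2 of them, Il13ra1 included, were at least 2-fold higher while 6 were at least 2-fold lower. The neighbours of Il13ra1 differed by -0.13 (Dock11) and 0.16 (Zcchc12, dim on both arrays). The samples thus differed in sex-linked transcripts as well as in genotype, and this holds for every gene compared here. Whether these transcripts came from donor or host cells cannot be told apart. The part of sex in the Il13ra1 difference, or in any other, was not tested.

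The IL-12 receptor showed the widest gap between the chains of any receptor examined. Il12rb2 encodes the chain that recruits STAT4 signalling and confers IL-12 responsiveness on T helper cells. Its intensity was 127 in Runx2-/- pDCs and 1085 in wild-type pDCs. The Runx2-/- value was 8.54-fold lower, a log2 difference of -3.09, and ranked 10 from the bottom of the genes past the filter. The Runx2-/- level of 6.99 was below that array's median and the wild-type level of 10.08 well above its own. Il12rb2 thus passed the filter through the wild-type array only, and nothing is read from its rank.

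Il12rb1, the other chain of the IL-12 receptor, did not share this difference. It had an intensity of 348 in Runx2-/- pDCs and 283 in wild-type pDCs, a log2 difference of 0.30. The difference of Il12rb1 exceeded that of Il12rb2 by 3.39. Il12rb1 also pairs with Il23r in the IL-23 receptor. Il23r, the genomic neighbour of Il12rb2, was dim on both arrays, at 48.9 in Runx2-/- and 54.6 in wild-type pDCs, and Serbp1, the neighbour on its other side, differed by 0.36.

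Of the genes for the IL-25 and IL-17A receptors, Il17rb was past 2-fold and lower in Runx2-/- pDCs, while Il17ra and Il17rc were also below their wild-type levels by less. Il17rb encodes the chain that binds IL-25, a cytokine known for type 2 immunity. Its intensity was 391 in Runx2-/- pDCs and 1233 in wild-type pDCs. That is 3.15-fold lower, a log2 difference of -1.66, at rank 48 from the bottom. Both levels were above the array medians.

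Il17ra, the chain shared by IL-25, IL-17A and IL-17F, was at 1399 in Runx2-/- pDCs and 1903 in wild-type pDCs, a difference of -0.44. Il17rc, its partner in the IL-17A receptor, was at 280.2 in Runx2-/- pDCs and 325 in wild-type pDCs, a difference of -0.21. Traf3ip2, which encodes the adaptor Act1 that these receptors recruit, was at 313 in Runx2-/- and 573 in wild-type pDCs, 1.83-fold lower, whereas Traf6, the ubiquitin ligase acting with Act1, differed by 0.23. Of these genes only Il17rb was past 2-fold. Its neighbour Chdh, a choline dehydrogenase gene, differed by -0.93, and the neighbour Actr8 by 0.19.

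The IL-3 receptor genes were all slightly lower in Runx2-/- pDCs. Il3ra, the IL-3 binding chain, had an intensity of 549 in Runx2-/- pDCs and 624 in wild-type pDCs, a difference of -0.19. The beta chains were Csf2rb, shared with the GM-CSF and IL-5 receptors, at 2730.1 in Runx2-/- and 3936 in wild-type pDCs, and Csf2rb2, a beta chain that mice use for IL-3 alone, at 3686 and 5149. Their differences were -0.53 and -0.48. Csf2rb and Csf2rb2 are near-identical paralogs, so probes of one may also read the other.

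**Figure D2:**
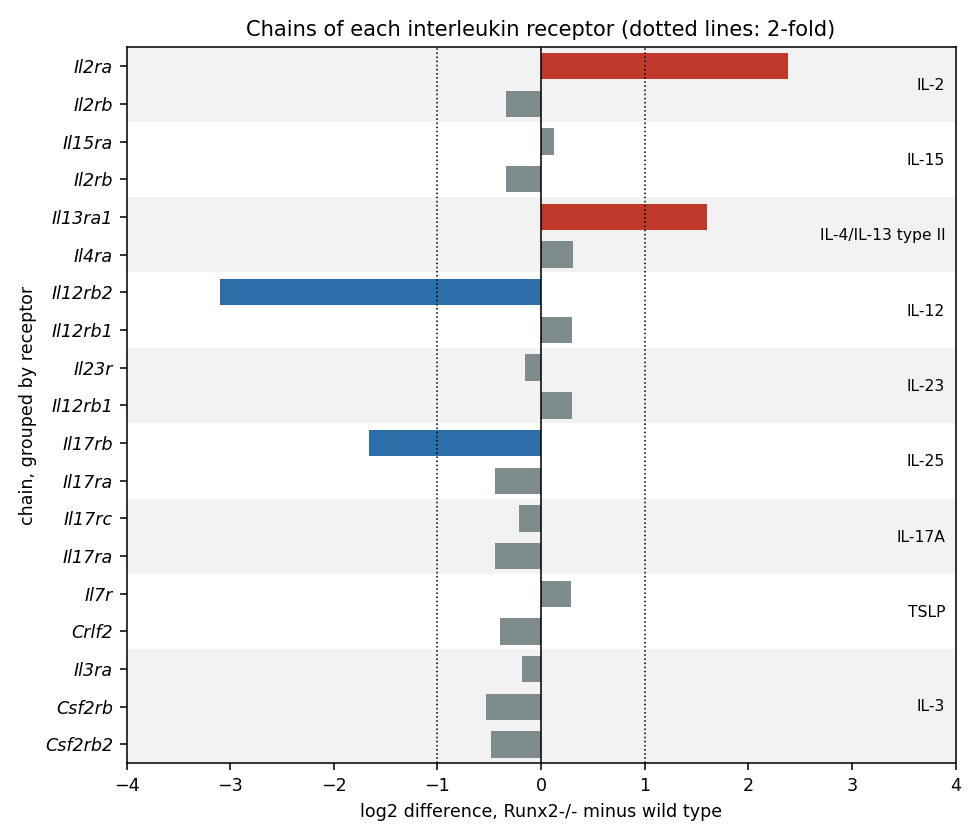
Log2 difference (Runx2-/- minus wild type, x axis) of each measured chain, grouped by receptor (shaded bands), with bars past 2-fold in red (higher) or blue (lower) and the others in grey; Il2rb, Il12rb1 and Il17ra appear in 2 receptors each. In the IL-2, type II IL-4 and IL-13, IL-12 and IL-25 receptors 1 chain is past 2-fold while its partner lies between -0.44 and 0.31.

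In each of the 4 receptors with a chain past 2-fold, the measured partner chain was not. Over all named genes 1.08% were 2-fold apart, and the lists were chosen with earlier results known, so nothing is read from this. The partners Il2rb, Il4ra, Il12rb1 and Il17ra had differences from -0.44 to 0.31. Il2rb was dim on both arrays, and Il2rg was not analysed here. Of the 10 partner chains outside the list of 9, 0 were 2-fold apart, 3 were above 0 and 7 below, and their median was -0.17. Among 2808 named genes within 0.5 of the mean log2 level of Il2ra, the central 95% of differences ran from -0.74 to 0.67, and among 3124 at the level of Il12rb2 they ran from -0.71 to 0.70. For Il13ra1 this range was -0.70 to 0.69 over 3220 genes, and for Il17rb -0.75 to 0.63 over 2681 genes. These ranges describe genes on 1 pair of arrays and are not the spread between replicates. The 4 chains were listed with their differences known, so nothing is read from their place outside these ranges. Il12rb2 and Il13ra1 were each above the median on 1 array only, and genes matched on the mean level are not matched to their dim level.

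**Figure D3:**
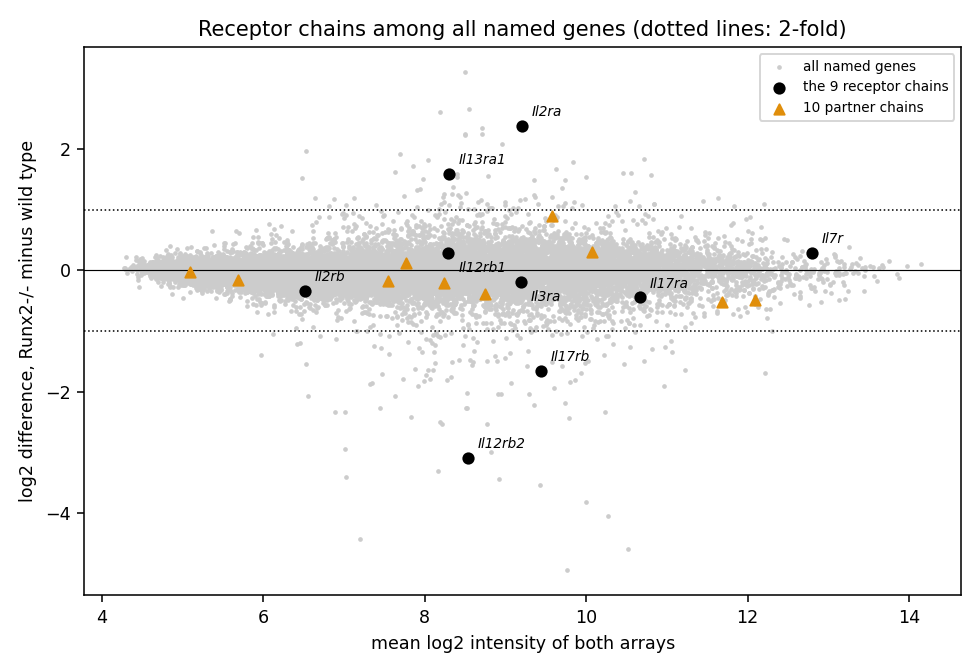
Log2 difference (Runx2-/- minus wild type, y axis) against the mean log2 intensity of both arrays (x axis) for 19938 named genes (grey), the 9 receptor chains (black circles) and 10 partner chains (orange triangles). Il2ra, Il13ra1, Il17rb and Il12rb2 lie outside the dotted 2-fold lines, and the 10 partner chains and the other 5 receptor chains lie inside.

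Differences of 2-fold were also counted for genes downstream of the receptors and for their ligands. Over all named genes 1.08% were 2-fold apart, so a count of 0 in lists this short is near that share. Of 10 measured JAK, STAT and adaptor genes, 0 were 2-fold apart and the median difference was 0.04; Stat3, Stat5a, Stat5b and Tyk2 differed by 0.16, -0.10, 0.11 and -0.28. Of 12 feedback inhibitor genes 0 were 2-fold apart, with Pias1 and Socs4 at 0.30 and 0.20 and Sh2b3 and Socs3 at -0.37 and -0.28. Of 16 ligand genes 0 were 2-fold apart and 14 were dim on both arrays; Il12a, which encodes the p35 subunit of IL-12, was past the filter at 737 in Runx2-/- and 614 in wild-type pDCs. The medians were 0.02 for the inhibitors and -0.01 for the ligands.

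Known target genes of the 2 most divergent receptors did not follow 1 direction. The share over all named genes, to set beside the counts here, was 1.08% at least 2-fold apart. Of 15 genes that IL-2 and STAT5 are known to induce in lymphocytes, 0 were 2-fold apart, 8 were above 0 and 7 below, with a median of 0.05. The survival gene Bcl2 was at 459 in Runx2-/- pDCs and 906 in wild-type pDCs, 1.97-fold lower, and the cyclin gene Ccnd3 was 1.72-fold lower. Tnfrsf18, which encodes the costimulatory receptor GITR, was 1.46-fold higher. Of 11 genes of the IL-12 and STAT4 response in lymphocytes, 1 was at least 2-fold higher, the chemokine gene Ccl3 at 2228 in Runx2-/- and 1002 in wild-type pDCs, and 0 were 2-fold lower. Ccl4 and Furin differed by 0.37 and -0.36, the interferon gamma gene Ifng by 0.19 near the array medians, and the list's median was 0.02.

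Other interleukin receptor genes stayed within 2-fold. Of 18 measured, 0 were 2-fold apart, which is near the share of 1.08% over all named genes. In this list 10 were dim on both arrays, and the median was -0.05. Il6st, which encodes the shared signalling chain gp130, was at 2179 in Runx2-/- and 1411 in wild-type pDCs, and Il6ra, its IL-6 binding partner, was at 1121 and 823. Both chains of the IL-6 receptor were thus higher in Runx2-/- pDCs, by 0.63 and 0.45 on the log2 scale. Il10ra, the IL-10 binding chain, differed by 0.34. The furthest below 0 were Il31ra, at -0.70, and Il18r1, at -0.37, both dim.

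**Figure D4:**
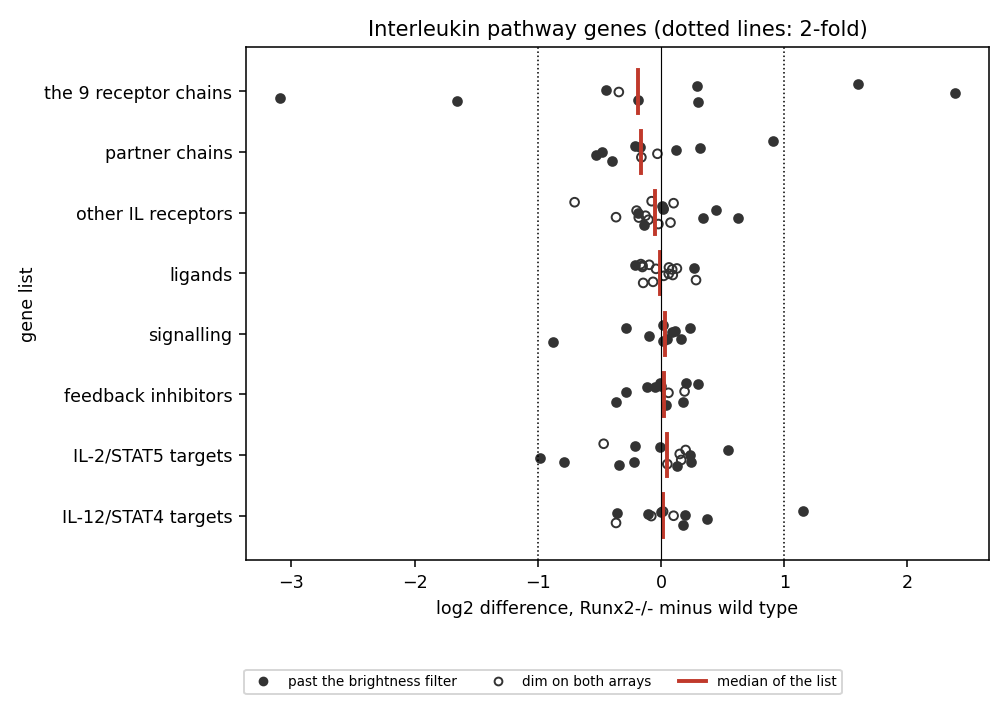
Log2 difference (Runx2-/- minus wild type, x axis) of each gene in 8 lists of the interleukin pathways (rows), filled where the gene was past the brightness filter and open where it was dim on both arrays, with the list median as a red bar; vertical scatter has no meaning. Outside the 9 receptor chains, 1 point, Ccl3, lies past a dotted 2-fold line.

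Markers of other blood cells that can carry these receptors differed between the 2 arrays to different degrees. Over all named genes 1.08% were at least 2-fold apart, 0.436% higher and 0.647% lower. These shares stand beside the marker counts here and below. Past 2-fold and lower in Runx2-/- pDCs were 10 of 12 neutrophil and granulocyte precursor genes, with a summed intensity of 2488 in Runx2-/- and 17814 in wild-type pDCs and a median difference of -2.15. Among 5 platelet genes 2 were at least 2-fold lower, Ppbp and Pf4, and the list summed to 1973 in Runx2-/- and 6864 in wild-type pDCs. Ppbp alone carried most of that gap in summed intensity: the other 4 genes summed to 1817 in Runx2-/- and 2026 in wild-type pDCs. Among these 4, Pf4, Gp9 and Itga2b differed by -1.27, -0.63 and -0.54, and Itgb3, the brightest, by 0.38. Among 6 erythroid genes 3 were at least 2-fold lower, and the list summed to 632 in Runx2-/- and 1811 in wild-type pDCs. Il12rb2 and Il17rb were lower on the same array, and the part of granulocyte, platelet and erythroid RNA in their differences was not tested. In RNA from a sorted population, fewer cells of a type and less RNA per cell cannot be told apart.

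Lymphocyte and innate lymphoid markers, of cells in which CD25, IL-12 and IL-25 receptors are best known, were less than 2-fold apart, except for 2 NK cell receptor genes. Of 8 T cell genes 0 were 2-fold apart and 5 were past the filter, the brightest being Cd28 at 1081 in Runx2-/- and 835 in wild-type pDCs and Cd5 at 427 and 373. The 3 that were dim on both arrays were Cd3d, Cd3e and Cd3g, which encode chains of the T cell receptor complex. The list summed to 2452 in Runx2-/- and 2103 in wild-type pDCs. Of 9 NK cell genes 2 were at least 2-fold higher, Klrk1 at 244 in Runx2-/- and 116 in wild-type pDCs and Klra8, dim on both arrays, at 152 and 52.5. Past the filter with Klrk1 were Klrd1, at 1796 in Runx2-/- and 1748 in wild-type pDCs, and Nkg7, at 267 and 362. The other 6 NK cell genes, Klra8, Ncr1, Klrb1c and Eomes among them, were dim on both arrays, and the list summed to 2808 in Runx2-/- and 2592 in wild-type pDCs. All 5 measured genes of type 2 innate lymphoid cells, Gata3 among them, were dim on both arrays and summed to 473 and 515. Of 10 B cell genes 0 were 2-fold apart, with Cd79a and Cd79b at -0.58 and 0.26 and sums of 3593 in Runx2-/- and 3431 in wild-type pDCs.

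The myeloid lists were mixed. Of 8 monocyte and macrophage genes 2 were at least 2-fold lower, Ccr2 and Lyz2 with log2 differences of -2.23 and -1.59. The list summed to 2112 in Runx2-/- and 3901 in wild-type pDCs. Its genes did not share 1 direction: 4 were above 0 and 4 below, with a median of -0.05. Among those above 0, C1qb and Csf1r differed by 0.89 and 0.64. Of 8 conventional dendritic cell genes 1 was at least 2-fold lower, the integrin gene Itgax at 379 in Runx2-/- and 2047 in wild-type pDCs. In the other direction 1 was at least 2-fold higher, Cd8a at 2472 and 805. The list summed to 14761 and 14393, with 4 genes above 0, 4 below and a median of -0.02. Clec9a and Flt3, the 2 brightest, differed by 0.17 and 0.24, while Zbtb46 and Xcr1 were dim on both arrays and differed by -0.11 and -0.04. Basophil and mast cell genes, of a lineage known for IL-3 receptors, had 0 of 8 genes 2-fold apart, a median of -0.31 and sums of 880.3 in Runx2-/- and 1160.3 in wild-type pDCs. The part of these cells in the receptor differences was not tested.

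**Figure D5:**
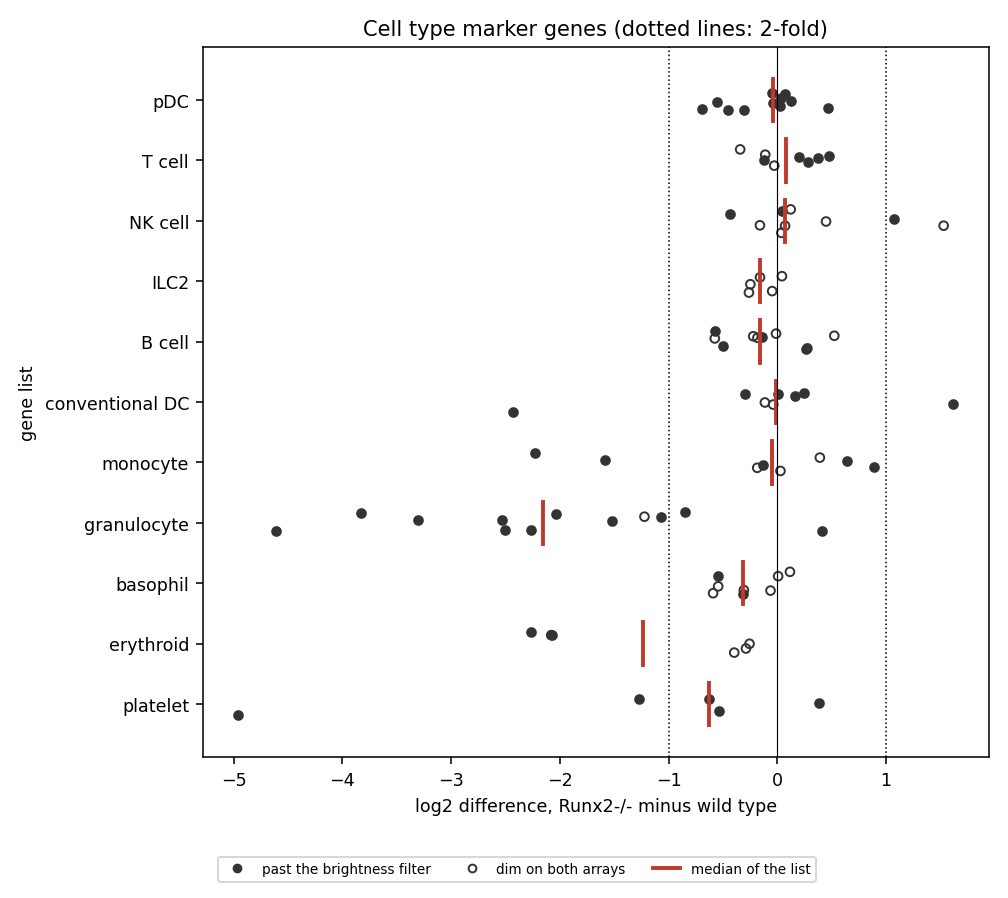
Log2 difference (Runx2-/- minus wild type, x axis) of marker genes of 11 cell types (rows), filled where past the brightness filter and open where dim on both arrays, with the list median as a red bar; vertical scatter has no meaning. The granulocyte and erythroid medians lie at -2.15 and -1.23, and the pDC, T cell and NK cell medians between -0.04 and 0.08.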

How the data were processed

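Values were the authors' deposited intensities, 1 per probe set and array on a linear scale; the authors used RMA (background correction, normalization and probe summarisation), per the submitters' processing notes. The software and which arrays were normalised together: not given in the sources used here. Differences of dim probe sets are compressed by RMA. Probe sets were named from the platform annotation where it gave exactly 1 symbol (21789 of 35556); where a gene had several, the one with the highest mean was used. RefSeq identifiers changed 0 symbols, and gene neighbours were taken from RefSeq on GRCm38.p6. Log2 values were subtracted (Runx2-/- minus wild type), and 2-fold was used as a threshold without a test, since 1 array per group leaves no spread and the number of arrays limits the precision. The members and all gene lists were chosen with earlier results of these data known; genes named from lists were all those 2-fold apart and up to 3 furthest from 0 in each direction, or the 2 brightest of each cell type list, and not each is printed. The sex-linked genes, the defining lymphoid markers, some monocyte, conventional dendritic cell and platelet markers, the pDC genes other than the 2 brightest and the neighbouring genes were named outside that rule. Alternatives were centring on the median difference of all probe sets, which was 0 and so changed no value, centring on that of named genes (added after seeing the data), loess (span 0.3), quantile normalization, other probe set choices, log2(value + 50), a 1.5-fold threshold and other brightness filters. Scripts ran in Python 3.11.15 with pandas 2.3.3, numpy 2.4.6, matplotlib 3.10.9 and statsmodels 0.14.6.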

Additional observations from a re-analysis of the deposited data

How the results depend on the processing

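All 4 chains past 2-fold, Il2ra, Il13ra1, Il12rb2 and Il17rb, kept their direction and stayed past 2-fold under the 4 alternatives that could change them (loess, quantile normalization, centring on named genes, chosen after seeing the data, and the pseudocount), with log2 differences (Runx2-/- minus wild type) from 2.19 to 2.42, 1.37 to 1.64, -3.12 to -2.68 and -1.72 to -1.54. Centring on all probe sets and the probe set choices could not change a chain, as the median difference was 0 and each chain has 1 probe set. The 2 higher and 2 lower chains were also the count at 1.5-fold. The other 5 chains kept their sign. With log2(value + 50), the gap of Il12rb2 to Il12rb1 was -2.94 and that of Il2ra to Il2rb 2.41. Of the 10337 genes past the brightness filter, 82 lay 2-fold or more above and 121 below their wild-type levels; at 1.5-fold these were 312 and 399, and 72 were lower among genes bright on both arrays. The list medians of the IL-2 and STAT5 targets, feedback inhibitors, ligands and other interleukin receptors, all within 0.06 of 0, changed sign under 1 to 4 alternatives each, so they have no direction. Quantile normalization put 1 of the IL-2 and STAT5 targets past 2-fold. At 1.5-fold 1 partner chain, 1 signalling gene, 2 other receptors and 2 IL-2 and STAT5 targets were apart. Log2 values counted as moved when they shifted by over 0.26, the robust spread of all differences between these arrays, which is not replicate spread, and counts when they changed by over 1.5 times. Of 196 alternative log2 values 3 moved, and 89 were identical to the reported ones; of 101 alternative counts 8 moved. No paired analysis was possible because each genotype has 1 array. The deposited table carries no detection call, so signal over background limits Il2rb, Il23r and Il13ra2, dim on both arrays, and the Runx2-/- level of Il12rb2.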

Other observations

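The genes beside 4 of the less divergent chains on the chromosome, Il2rb, Il12rb1, Il17ra and Il7r, were also less than 2-fold apart. Tmprss6 and C1qtnf6, the neighbours of Il2rb, differed by -0.30 and -0.29, close to the -0.34 of Il2rb itself. Mast3 and Arrdc2, beside Il12rb1, differed by -0.36 and -0.19, and Kdm5a and Tmem121b, beside Il17ra, by 0.18 and -0.08. Spef2 and Capsl, beside the bright Il7r, differed by 0.02 and -0.07. C1qtnf6 and Capsl were dim on both arrays. Beside Il3ra, Olfr31 was dim on both arrays and differed by -0.21, and Slc4a7 was not analysed here.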
